A study of Mus musculus with 36 samples.

Results

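The proteasome is the protease that degrades ubiquitin-tagged proteins. Its 20S core is a barrel of Psma and Psmb subunits whose inner rings carry the cutting sites, and its 19S regulator, built of Psmc ATPases and Psmd subunits, binds ubiquitin chains, unfolds the substrate and feeds it into the core. Other caps can replace the 19S regulator (the Psme activators), Psmf1 is an inhibitor of the core, and the Psmg proteins are chaperones that assemble the core and do not stay in it. The ubiquitin-proteasome pathway is known to take part in the remodelling of late red cell precursors, some of which reach the blood as reticulocytes.

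The constitutive proteasome genes were followed in blood of male C57BL/6J mice, 8 to 10 weeks old, collected 7 days after exposure. Each mouse had its own single-colour Agilent array, and each of the 6 groups held 6 mice. Controls were sham-irradiated. The x-rays group received 3 Gy of x-rays, and the 5, 15 and 25% mixed field groups received 3 Gy in all, with neutrons giving that share of the dose and x-rays most of the rest. The 83% neutron group received 0.75 Gy of neutrons, the neutron dose of the 25% mixed field, without x-rays. Its name is the study's, because the source adds a small share of photons to the neutrons, while the sample titles call it 100%. All animals carried the same inbred background and no transgene is named.

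Members were the genes whose symbol on the array was Psma to Psmg followed by a digit, without the inducible immunoproteasome genes Psmb8, Psmb9 and Psmb10. This gave 46 of the 31093 gene names on the array, on 59 probes. They were 16 genes of the 20S core, 20 of the 19S regulator, 5 activator or inhibitor genes, 4 chaperone genes and Psmc3ip, a meiotic recombination factor that shares only the letters and was counted apart. Of the 46, 31 were tested. Another 13 varied too little over the 36 arrays for the study's filter (Psma1, Psmb1, Psmb2, Psmb3, Psmb4, Psmb6, Psmc4, Psmd1, Psmd5, Psmd11, Psmd12, Psmd13 and Psme1), and 2 were not above background on enough arrays, the testis core subunit Psma8 and the thymus core subunit Psmb11. The tested set held 8 genes of the 20S core and 14 of the 19S regulator. Members passed the filter because they varied, so their counts describe these 31 genes and not the whole complex.

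A level here is the log2 of the background-corrected probe intensity with the median probe of the array set to 0, and a difference is between group means of such levels. Levels of different probes cannot be compared. Each comparison was fitted to its own 12 arrays. A gene was called below an unadjusted threshold of 0.001 and below 0.05 after Benjamini-Hochberg adjustment over all 15084 genes that limma tested. Between 15564 and 21293 probes per array were well above background. Controls and x-rays were mostly scanned in the same session, 5 and 15% in another, and 25% and 83% in another, so session and exposure cannot be told apart when 25% or 83% is compared with controls or x-rays. The 5 and 15% groups shared a session with controls through 1 array of each only. With session as a block, 0 members were called at 5% and 0 at 15%, where limma called 0.590% and 0.902% of all genes. At an unadjusted p under 0.05 in that fit, 3 and 6 members passed. The share of all genes passing there is not given here. With slide as a block the calls at 5 and 15% were also 0, and the share of all genes called there is not given here. These groups shared a slide with controls through 1 array of each only. All calls at 5 and 15% given below are without these blocks. Blood was measured whole, so fewer cells of a type and less RNA per cell cannot be told apart.

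The clearest contrast within the proteasome lay between the 25% mixed field and the 83% neutron group, which share the neutron dose and the scan session. All 22 tested genes of the 20S core and 19S regulator had a lower mean at 83% than at 25%, with differences from -0.15 (Psmd4) to -1.36 (Psmc5). For 3 of them, Psma4, Psma5 and Psmc1, the array's annotation places the probe on another chromosome than the gene, so what it binds is uncertain, and without them 8 of 28 members were called. Of all 15084 genes, 46.5% had a lower mean. Of the 31 members, 9 were called, all lower at 83%, which is 29.0%, where 11.4% of all genes were called in either direction. The 9 were the core subunits Psma5, Psmb5 and Psmb7, the regulator genes Psmc3, Psmc5, Psmd2, Psmd6 and Psmd9, and the activator Psme4. The median difference was -0.61 for the core, -0.70 for the regulator and 0.05 for all genes.

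The direction was the same for the 34 core and regulator genes above background when the filter on variation was dropped: 34 of 34 were lower at 83%. Under quantile normalization it held for 11 of the 13 that then passed the filter. On the slide that held 2 arrays of each group it held for 19 of 22, and with slide as a block 0 of the 31 members, and 2.17% of all genes, were called. With normexp background correction 0 members were called (2.23% of all genes), and with the replicate number as a block 5 were. At an unadjusted p under 0.05 in limma, 10 members passed with the slide block and 24 of 43 with normexp. The shares of all genes passing at that threshold are not given here.

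B-cell markers moved too: 5 of 6 were called higher at 83% than at 25% (median 2.73), and their mean log2 level ran from 5.55 to 6.01 in the 83% group, 2.68 to 4.12 in the 25% group and 6.91 to 7.70 among controls. Of 7 erythroid markers none was called (median 0.02), with values from -0.95 for Klf1 to 1.04 for Alas2. Of 6 platelet markers 2 were called lower at 83%, Gp1bb (-1.44 ± 0.24) and Itgb3 (-1.27 ± 0.21), and the median of the 6 was -0.62. The mean log2 level of the platelet markers was 9.29 to 10.10 in the 83% group and 10.08 to 11.13 in the 25% group, with a control median of 9.61. None of the T-cell, NK-cell, neutrophil or monocyte markers was called in this contrast. The part of cell composition in the proteasome differences was not tested.

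**Figure D1:**
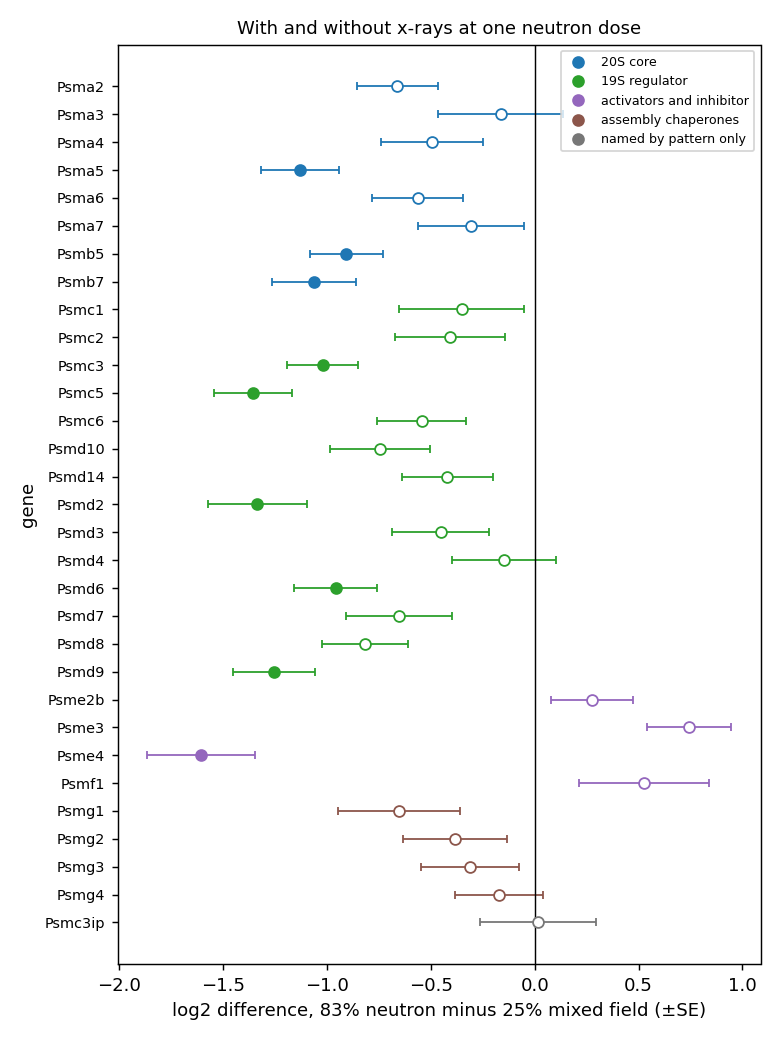
Log2 difference between the 83% neutron and 25% mixed field group means (x axis, ±SE, n = 6 mice per group) for the 31 tested members, with filled points for called genes and colours for the classes. All 22 points of the 20S core and 19S regulator lie left of 0, and Psme3, Psmf1 and Psme2b lie right of it.

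The 9 genes differed in where their other groups lay. Psmd2, the 19S subunit that docks ubiquitin shuttles, ran from 6.64 to 6.92 in controls (median 6.79), 7.25 to 8.17 in the x-ray mice (7.94), 7.11 to 7.95 in the 5% group (7.62), 6.74 to 8.01 in the 15% group (7.55), 6.97 to 8.21 in the 25% group (7.43) and 6.03 to 6.51 in the 83% group (6.19). Every array of the 83% group lay below every other array of the series. Psmd2 was 1.06 ± 0.19 (SE) higher than controls after x-rays (adjusted p = 0.000508) and 0.55 ± 0.12 lower at 83% (log2 difference -0.55, adjusted p = 0.00187). The call against controls at 83% was lost in 14 of 26 alternatives, leaving out single arrays included, where the difference ran from -1.98 to -0.29 (adjusted p up to 0.0526). The direct difference of 83% from x-rays was -1.61 ± 0.19 (adjusted p = 0.00011). The direct call was lost in 1 of 26, with normexp. Mixed fields gave 0.80, 0.66 and 0.78 without a call.

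Psma5, of the outer ring of the core, ran from 5.83 to 6.69 in controls (median 6.37), 6.85 to 7.81 in the x-ray mice (7.34), 6.63 to 8.48 in the 5% group (7.85), 6.94 to 8.47 in the 15% group (8.27), 7.52 to 8.37 in the 25% group (7.83) and 6.49 to 6.95 in the 83% group (6.69). The x-rays, 15% and 25% arrays did not overlap the controls, and the 83% arrays lay below all of the 25% arrays. It was called higher after x-rays (0.97 ± 0.21), 5% (1.36 ± 0.29), 15% (1.65 ± 0.28) and 25% (1.48 ± 0.21), with 0.35 ± 0.16 and no call at 83%. The difference of 83% from 25% was -1.13 ± 0.19 (adjusted p = 0.000812). The Psma5 call after x-rays was lost in 11 of 27 alternatives, leaving out single arrays included. The array's own annotation places the Psma5 probe on chromosome 10 and RefSeq places the gene on chromosome 3.

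The catalytic subunits Psmb5 (chymotrypsin-like) and Psmb7 (trypsin-like) were not called against controls in any exposure. Psmb5 ran from 8.65 to 9.09 in controls (median 8.77), 9.28 to 9.76 in the 25% group (9.49) and 8.35 to 8.85 in the 83% group (8.58). Psmb7 ran from 5.32 to 5.65 in controls (5.42), 5.71 to 6.47 in the 25% group (6.21) and 4.73 to 5.37 in the 83% group (5.04). For each gene the 25% arrays lay above all control and all 83% arrays, while 83% overlapped the controls. The differences of 83% from 25% were -0.91 ± 0.18 for Psmb5 (adjusted p = 0.00227) and -1.06 ± 0.20 for Psmb7 (adjusted p = 0.00191). Psmb5 had 2 probes on the array, and values of the other probe are not given here. The third catalytic subunit, Psmb6 (caspase-like), varied too little to be tested.

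The ATPases Psmc3 and Psmc5, of the ring that unfolds substrates, were both lower at 83% than at 25%. Psmc3 ran from 8.58 to 9.05 in controls (median 8.76), 9.28 to 9.82 in the 25% group (9.54) and 8.23 to 8.65 in the 83% group (8.54). Psmc5 ran from 5.27 to 5.81 in controls (5.63), 6.16 to 6.92 in the 25% group (6.53) and 4.98 to 5.51 in the 83% group (5.14). Psmc3 was called higher than controls at 15% (0.82 ± 0.19) and 25% (0.75 ± 0.18), and Psmc5 at 25% (0.94 ± 0.19). Neither was called at 83%, with -0.27 ± 0.13 and -0.42 ± 0.14. The differences of 83% from 25% were -1.02 ± 0.17 (adjusted p = 0.000848) and -1.36 ± 0.19 (adjusted p = 0.000224). The Psmc3 calls against controls were lost in 14 of 25 alternatives at 15% and 12 of 24 at 25%, leaving out single arrays included. Psmc3 had 2 probes on the array, and values of the other probe are not given here.

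Psmd6, a subunit of the 19S lid, was called against controls at 83% alone, and its differences in the other 4 exposures lay between -0.38 ± 0.29 (15%) and 0.13 ± 0.20 (25%). Its arrays ran from 4.86 to 5.36 in controls (median 5.11), 4.74 to 5.63 in the 25% group (5.27) and 4.11 to 4.58 in the 83% group (4.17). The difference of 83% from 25% was -0.96 ± 0.20 (adjusted p = 0.00343) and from controls -0.83 ± 0.14 (adjusted p = 0.000168). Psmd9, a chaperone of 19S assembly, ran from 3.03 to 3.26 in controls (3.09), 4.41 to 5.33 in the 25% group (4.56) and 3.25 to 3.73 in the 83% group (3.40). It was called higher after x-rays (1.26 ± 0.22), 5% (1.49 ± 0.19), 15% (1.57 ± 0.18) and 25% (1.56 ± 0.19), and 83% was lower than 25% by a log2 difference of -1.25 ± 0.20 (adjusted p = 0.000553). A second, dimmer Psmd9 probe was not called in any of these comparisons (-0.36 ± 0.20 after x-rays, 0.29 ± 0.27 at 25%, 0.24 ± 0.25 at 83%).

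**Figure D2:**
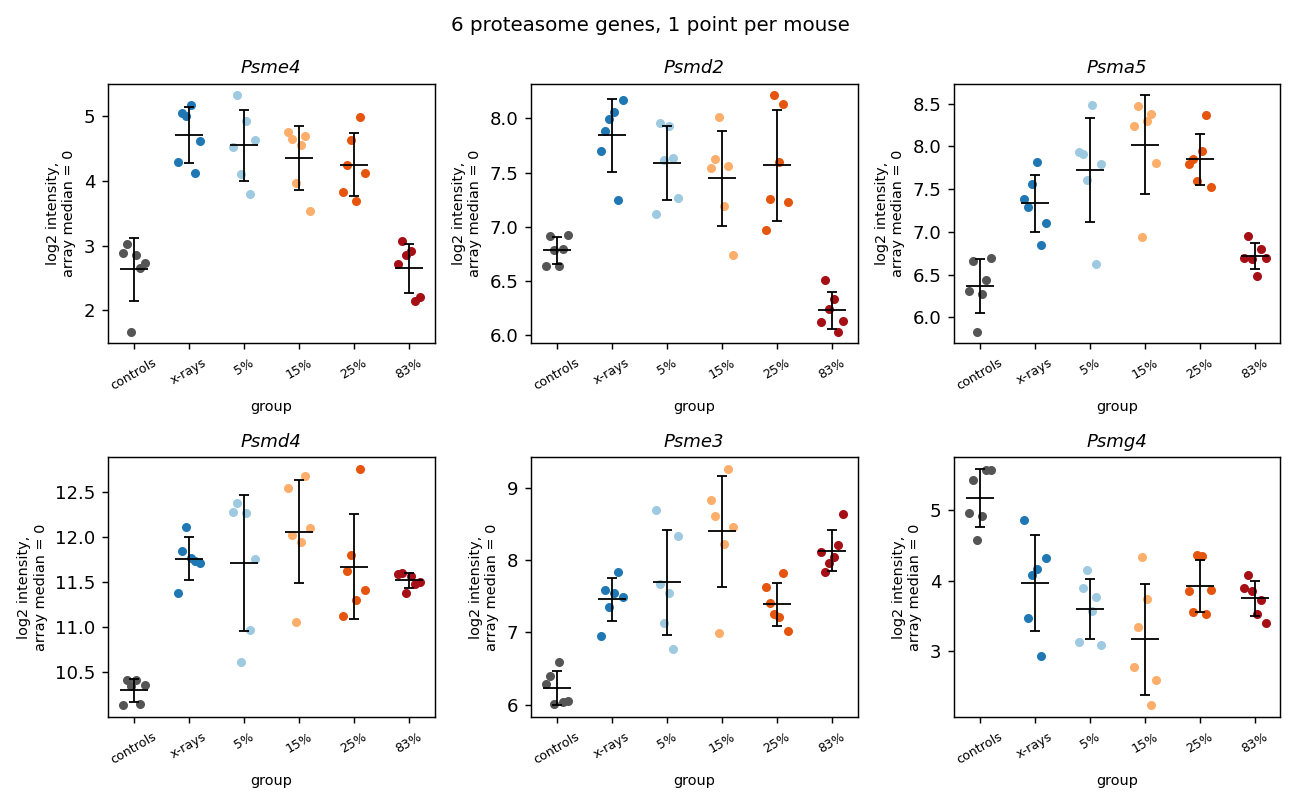
Log2 level with the array median at 0 (y axis) of 6 members in the 6 groups, 1 point per mouse, with the mean and SD. The 83% arrays of Psme4 overlap the controls, those of Psmd2 lie below every other array, and all exposed arrays of Psmd4 and Psme3 lie above the controls.

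Psme4, known as PA200, is a nuclear activator that caps the core and has been linked to histone degradation and DNA repair. It had the largest rise of any member after x-rays and at 5 and 25%, and its mean at 83% differed from controls by less than its SE. It ran from 1.67 to 3.02 in controls (median 2.79), 4.13 to 5.17 in the x-ray mice (4.81), 3.80 to 5.32 in the 5% group (4.58), 3.54 to 4.75 in the 15% group (4.60), 3.70 to 4.99 in the 25% group (4.18) and 2.14 to 3.06 in the 83% group (2.78). No array of the 4 groups that received x-rays overlapped a control or an 83% array. The differences from controls were 2.08 ± 0.27 after x-rays (4.22-fold, adjusted p = 5.02e-05), 1.92 ± 0.30 for 5%, 1.73 ± 0.29 for 15%, 1.62 ± 0.28 for 25% and 0.01 ± 0.24 for 83% (adjusted p = 0.963). The direct difference of 83% was -2.06 ± 0.25 from x-rays (adjusted p = 0.00011) and -1.61 ± 0.26 from 25% (adjusted p = 0.00068).

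The array carried 2 Psme4 probes, from different parts of the transcript, and they are shown because the pattern of this gene rests on them. The probe used lies at chr11:30756055-30756114 and the other at chr11:30710953-30711012, both on the plus strand in the mm9 build of the array's annotation.
Psme4 probe used: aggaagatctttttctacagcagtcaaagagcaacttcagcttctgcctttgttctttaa
Psme4 other probe: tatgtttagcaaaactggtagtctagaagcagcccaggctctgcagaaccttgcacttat
In a fit over 21483 probes the other probe was also called higher after x-rays (1.33 ± 0.23) and 25% (1.55 ± 0.20) and lower at 83% than at 25% (-1.01 ± 0.19). At 83% it stood 0.54 ± 0.14 above controls without a call, and its difference of 83% from x-rays, -0.79 ± 0.23, was not called either.

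Against controls, 8 members were called higher and 2 lower in the x-rays group. The 5% group had 6 higher and 2 lower calls, the 15% group 9 and 3, the 25% group 8 and 3, and the 83% group 4 and 11. Higher calls were 25.8% of the 31 members after x-rays, where 12.9% of all genes were called higher, 19.4% at 5% against 9.04%, 29.0% at 15% against 12.6%, 25.8% at 25% against 10.9% and 12.9% at 83% against 16.1%. Lower calls were 6.45% of members after x-rays, where 16.9% of all genes were called lower, 6.45% at 5% against 14%, 9.68% at 15% against 16.5%, 9.68% at 25% against 13.9% and 35.5% at 83% against 20.5%. The balance of higher and lower calls depended on the scaling. In the same order of groups, scaling to the 75th percentile gave 9 higher and 1 lower, then 11 and 2, 12 and 2, 12 and 3, and 6 of each. Quantile normalization gave 7 higher and 4 lower, then 3 of each, 5 of each, 5 and 3, and 3 and 12. The authors' deposited expression values gave 8 higher and 7 lower, then 4 of each, 5 and 6, 4 of each, and 3 and 21. Scaling on probes well above background gave 6 and 8 at 83%, and with normexp background correction only 1 member was called, at 15%, while 2.49 to 7.42% of all genes were. For the other scalings and the deposited values, the shares of all genes called higher or lower are not given here. The member counts there cannot be set against such shares.

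Median differences of the 8 core genes were -0.23 for the x-rays group, 0.48 for 5%, 0.56 for 15%, 0.47 for 25% and -0.30 for 83%. Those of the 14 regulator genes were 0.07, 0.53, 0.57, 0.60 and -0.34, and those of all genes lay between -0.12 and -0.02. The core median at 5, 15 and 25% turned negative under quantile normalization (-0.43, -0.58 and -0.35) and in the deposited values (-0.53, -0.69 and -0.40), while the regulator median stayed positive (0.46 to 0.66 and 0.12 to 0.39). At 83% the core median was 0.20 with 75th percentile scaling and 0.07 with scaling on probes well above background. The regulator median there was -0.002 and -0.12, and the median of all genes 0.30 and 0.19.

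The mean of the core genes minus the mean of the regulator genes was computed in each array, with controls centred on 0. It ran from -0.17 to 0.08 in controls (median 0.03), -0.38 to -0.14 in the x-ray mice (-0.30), -0.34 to -0.04 in the 5% group (-0.22), -0.34 to -0.01 in the 15% group (-0.17), -0.40 to -0.05 in the 25% group (-0.13) and -0.28 to -0.05 in the 83% group (-0.11). Every group overlapped the controls, with the x-ray arrays lying nearly apart. Without the filter on variation (14 core and 20 regulator genes), controls ran from -0.13 to 0.10. There the 5% arrays (-0.35 to -0.17) and 25% arrays (-0.39 to -0.17) did not overlap the controls, while x-rays, 15% and 83% did. With the filter, the difference of the group means was negative in all 5 exposures, from -0.29 after x-rays to -0.12 at 83%. It was negative in each alternative run too, where it ranged from -0.06 to -0.79. It is a description of chosen genes and was given no test. The regulator mean includes Psmd9 and Psmd10, chaperones of 19S assembly, and Psmc1, and the core mean includes Psma4 and Psma5. The annotation places the probes of Psmc1, Psma4 and Psma5 on other chromosomes than their genes. The difference was not computed without these genes, and the class medians above hold them too.

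**Figure D3:**
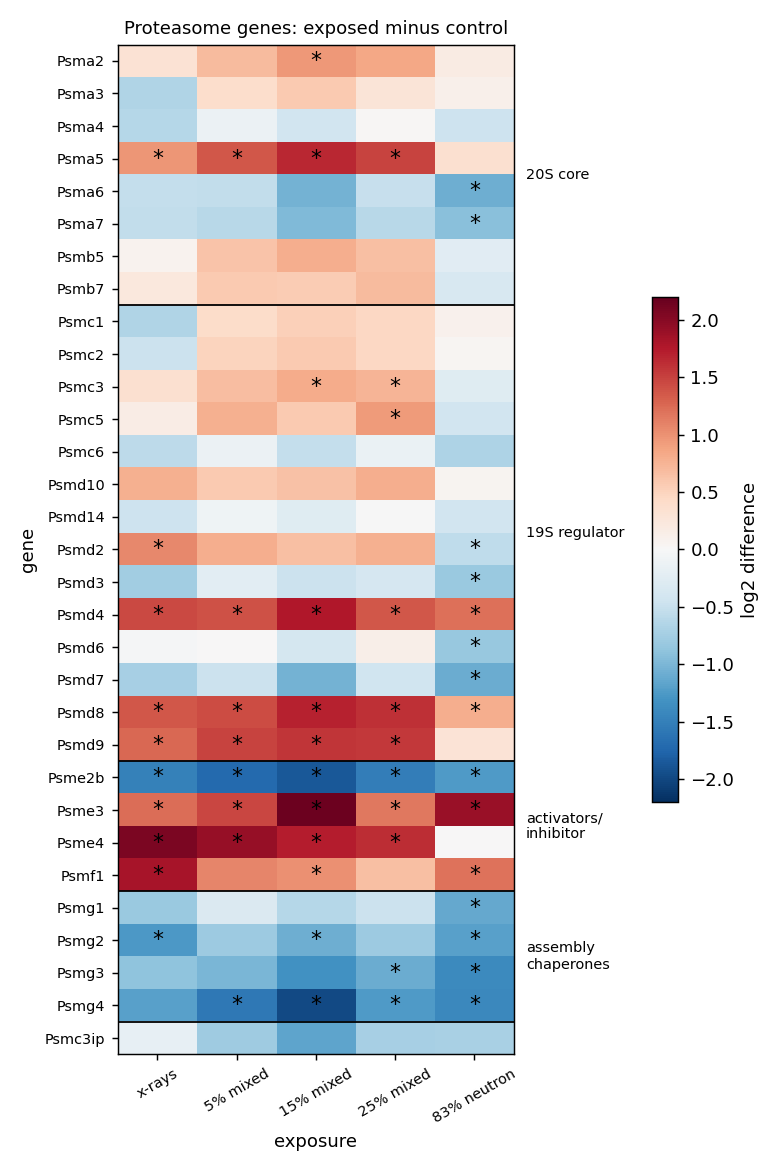
Log2 difference from controls (colour) of the 31 tested members (rows, grouped by class) in the 5 exposures (columns), with an asterisk where the gene was called. Psmd4, Psmd8 and Psme3 are red with an asterisk in every column, the Psmg rows are blue throughout, and most core and regulator rows turn paler or blue at 83%.

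Called members of the core beyond Psma5 were few. Psma2, of the outer ring, was called at 15% (0.96 ± 0.23, adjusted p = 0.00334). Psma6 and Psma7, also of the outer ring, were called lower at 83%, with -1.07 ± 0.19 (adjusted p = 0.000337) and -0.92 ± 0.17 (adjusted p = 0.000476). In the 83% group the lid subunits Psmd3 (-0.82 ± 0.14) and Psmd7 (-1.09 ± 0.13), the latter a partner of the deubiquitinase Psmd14, were called lower as well. Of the 22 core and regulator genes, 6 were called lower at 83%, where 20.5% of all genes were, and 0 in the other exposures, where 13.9 to 16.9% of all genes were.

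Psmd4 and Psmd8 were called higher in all 5 exposures. Psmd4, a ubiquitin receptor of the 19S regulator, ran from 10.13 to 10.42 in controls (median 10.35) and, in the exposed groups, from 10.62 (5%) to 12.75 (25%). Its differences were 1.46 ± 0.17 for x-rays, 1.41 ± 0.31 for 5%, 1.76 ± 0.26 for 15%, 1.37 ± 0.25 for 25% and 1.22 ± 0.11 for 83% (adjusted p = 1.72e-06), and no exposed array reached down to the controls. The Psmd4 call at 5% was lost in 11 of 25 alternatives, leaving out single arrays included (adjusted p up to 0.767). Psmd8, of the 19S lid, ran from 5.94 to 6.33 in controls (6.07), from 6.90 to 8.45 in the x-ray and mixed field groups, and 6.77 to 7.16 in the 83% group (6.82), again without overlap. Its differences were 1.36 ± 0.19, 1.44 ± 0.23, 1.70 ± 0.20, 1.61 ± 0.21 and 0.80 ± 0.12 in the same order. The difference of 83% from 25% was -0.15 ± 0.25 for Psmd4 and -0.82 ± 0.21 for Psmd8 (adjusted p = 0.012), neither of them called. With normexp both genes had values below 0, without a call, at 5% (-0.66 and -0.55) and 83% (-0.52 and -0.79).

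Psme3, the nuclear activator PA28-gamma, was the other member called higher in all 5 exposures. It ran from 6.01 to 6.59 in controls (median 6.17), 6.94 to 7.84 in the x-ray mice (7.51), 6.76 to 8.69 in the 5% group (7.61), 6.99 to 9.25 in the 15% group (8.54), 7.02 to 7.82 in the 25% group (7.32) and 7.83 to 8.63 in the 83% group (8.07). No exposed array overlapped a control. The differences were 1.23 ± 0.19, 1.46 ± 0.31, 2.16 ± 0.32, 1.16 ± 0.20 and 1.90 ± 0.16 (3.73-fold at 83%, adjusted p = 9.58e-07). With normexp its difference at 5% was -0.52, without a call. Unlike Psme4, its mean was higher at 83% than at 25%, by 0.74 ± 0.20, which was not called (adjusted p = 0.017).

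Psmf1, the core inhibitor PI31, ran from 6.08 to 6.52 in controls (median 6.27), 7.66 to 8.66 in the x-ray mice (8.03), 7.10 to 7.65 in the 15% group (7.16) and 7.12 to 7.91 in the 83% group (7.50). It was called after x-rays (1.81 ± 0.20, adjusted p = 1.22e-05), 15% (1.00 ± 0.19) and 83% (2.29-fold, adjusted p = 1.78e-05). At 5% (1.08 ± 0.34) and 25% (0.67 ± 0.31) its arrays spread from 5.90 to 8.09 and from 6.19 to 8.25, overlapped the controls and gave no call. Psme1, a subunit of the interferon-inducible activator PA28, had control arrays from 7.63 to 8.24, varied too little and was not tested, and no probe carried the name Psme2.

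Psme2b was called lower in all 5 exposures, but its probes disagreed. The probe that passed the filter was a dim one, with controls from 3.23 to 4.17 (median 3.36) and exposed arrays from 0.55 to 2.69, and it gave differences of -1.49 ± 0.27, -1.70 ± 0.24, -1.86 ± 0.31, -1.51 ± 0.21 and -1.24 ± 0.18. The brightest Psme2b probe failed the filter and gave -0.35 ± 0.22 after x-rays, 0.10 ± 0.16 at 25% and -0.19 ± 0.15 at 83%, none of them called. Without the filter the bright probe stands for the gene, and its differences at 15 and 25% were above 0. What these probes bind is uncertain, since they disagree.

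**Figure D4:**
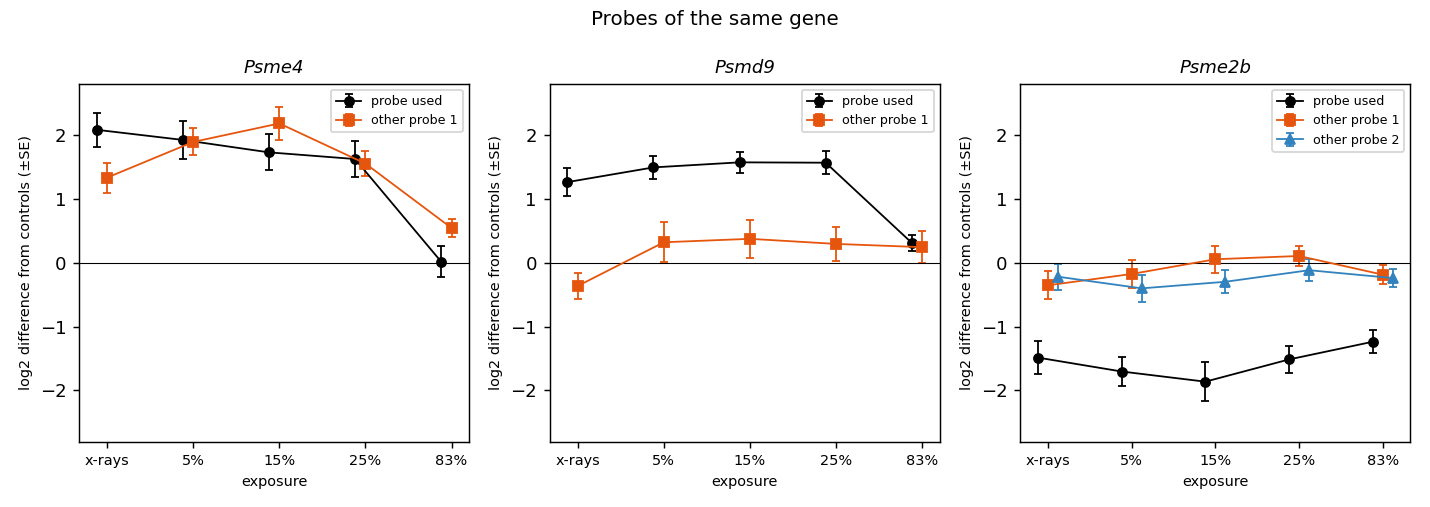
Log2 difference from controls (y axis, ±SE, n = 6 mice per group) by exposure (x axis) for each probe of Psme4, Psmd9 and Psme2b, from the fit over 21483 probes, with the probe used for the gene in black. Both Psme4 probes lie above 0 in the groups that received x-rays, whereas only the used probes of Psmd9 and Psme2b depart far from 0.

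The assembly chaperones had means below controls in every exposure. Psmg1 and Psmg2 form a pair that helps build the outer ring of the core, and Psmg3 and Psmg4 form another. All 4 had mean differences below 0 in all 5 exposures, and all 4 were called lower at 83%: Psmg1 (-1.13 ± 0.18), Psmg2 (-1.19 ± 0.16), Psmg3 (-1.41 ± 0.14) and Psmg4 (-1.41 ± 0.20). Psmg4 had the lowest value of any member at 15% (-1.99 ± 0.35, 3.98-fold lower, adjusted p = 0.000373) and was also called at 5% (-1.57 ± 0.26) and 25% (-1.24 ± 0.24). Psmg2 was called after x-rays (-1.26 ± 0.28) and at 15% (-1.08 ± 0.24), and Psmg3 at 25% (-1.10 ± 0.25). These calls were lost in 11 of 27, 14 of 27 and 9 of 26 alternatives, leaving out single arrays included. Psmg1 and Psmg2 had 2 probes each on the array, and values of their other probes are not given here.

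Psmg4 arrays ran from 4.57 to 5.57 in controls (median 5.18), 2.93 to 4.86 in the x-ray mice (4.12), 3.08 to 4.15 in the 5% group (3.67), 2.23 to 4.34 in the 15% group (3.06), 3.53 to 4.36 in the 25% group (3.86) and 3.40 to 4.08 in the 83% group (3.79). Among these, only x-ray arrays overlapped the controls. Psmg3 ran from 4.29 to 4.92 in controls (4.63) and 3.05 to 3.42 in the 83% group (3.18), the narrowest of its groups. The mean of the 4 chaperones ran from -0.38 to 0.30 in controls around a mean of 0, -2.03 to -0.18 in the x-ray mice and -1.65 to -0.94 in the 83% group. Taken minus the core mean of the same array, it ran from -0.07 to 0.09 in controls and from -1.99 to -0.49 over all exposed arrays, without overlap. The direct differences of 83% from 25% ran from -0.17 to -0.65 for the chaperones, and none was called.

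**Figure D5:**
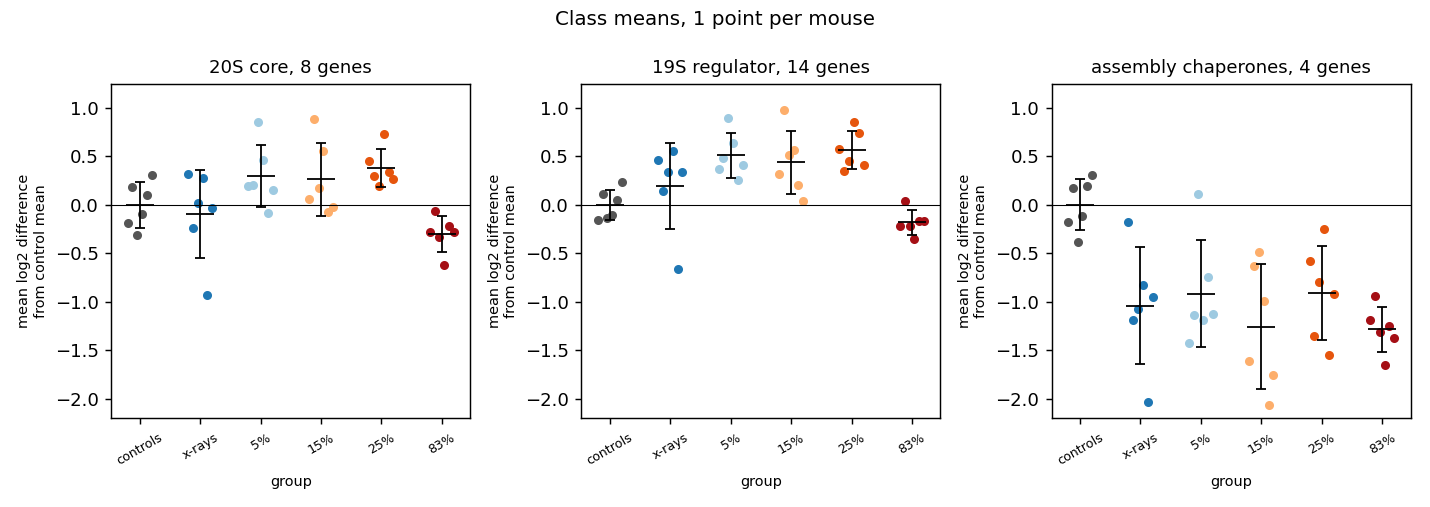
Mean log2 difference from the control mean (y axis) of the tested 20S core, 19S regulator and assembly chaperone genes in each array, 1 point per mouse, with the mean and SD per group. The 25% and 83% arrays do not overlap for the core or the regulator, and the Psmg chaperones lie below 0 in all but 1 exposed array.

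Against x-rays, no member was called at 5, 15 or 25%, where 0%, 4.09% and 2.61% of all genes were called in limma. At an unadjusted p under 0.05 in limma, 3, 9 and 6 members passed, as did 3507, 4244 and 4429 of all 15084 genes. The model over all 36 arrays called 0, 4 and 1 members, and its share of all genes is not given here. At 83%, 2 members were called against x-rays (6.45%, against 12.9% of all genes), Psmd2 and Psme4, which are described above. This count rested on 1 array: without the x-ray array of replicate 5, 8 members were called, all lower. That array was the lowest of the x-ray group for the core mean (-0.92) and the regulator mean (-0.66). The share of all genes called without it is not given here, so the 8 cannot be set against that share.

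Genes that work with the proteasome were followed as lists. Of 7 tested genes of proteins that associate with the 26S particle, the x-rays group had 1 called higher, the 5% group 2, the 15% and 25% groups 3 each, and the 83% group 1, besides 1 called lower. Of all genes, 12.9%, 9.04%, 12.6%, 10.9% and 16.1% were called higher in these groups. Usp14, a deubiquitinase of the 19S regulator, was called higher in all 5 exposures, from 0.91 ± 0.14 at 83% to 1.52 ± 0.24 at 15%. Pomp, which matures the core, was called higher at 15% (1.27 ± 0.26) and 25% (1.06 ± 0.23), and was higher there than after x-rays as well (1.43 ± 0.32 and 1.22 ± 0.29). Shfm1, a small 19S subunit, was called at 5% (1.13 ± 0.27), 15% (1.38 ± 0.27) and 25% (1.16 ± 0.23), and the deubiquitinase Uchl5 was called lower at 83% (-0.96 ± 0.17).

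Among the ubiquitin shuttles, Ubqln1 was called higher at 5% (1.29 ± 0.28), 15% (1.64 ± 0.32), 25% (1.28 ± 0.23) and 83% (0.82 ± 0.18), and Rad23b was called lower at 83% (-0.92 ± 0.16). Of 4 tested genes on the route that activates NRF1, the transcription factor of proteasome genes, the segregase Vcp was called higher in all 5, from 1.59 ± 0.14 at 83% to 2.25 ± 0.29 at 15%. Its cofactor Ufd1l was called at 5% (1.46 ± 0.23), 15% (1.57 ± 0.21) and 25% (1.53 ± 0.21), and was lower at 83% than at 25% (-1.36 ± 0.19, adjusted p = 0.00029). Ngly1, which trims NRF1, was called lower at 5% (-1.66 ± 0.34), 25% (-1.54 ± 0.29) and 83% (-1.56 ± 0.37).

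Among the ubiquitin genes, the activating enzyme Uba1 was called higher after x-rays (2.83-fold), 5% (3.64-fold), 15% (5.77-fold) and 25% (4.47-fold), with 1.59-fold and no call at 83%, which was called lower than 25% (adjusted p = 0.000629). The polyubiquitin gene Ubb was called higher at 83% (0.97 ± 0.13). None of the immunoproteasome genes was called higher in any exposure. Psmb8 was called lower in all 5 exposures, from -1.02 ± 0.19 at 25% to -1.46 ± 0.23 at 5%, Psmb9 after x-rays (-1.12 ± 0.24) and 5% (-1.06 ± 0.24), and Psmb10 in none.

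Marker genes of blood cell types were followed beside the members. All 6 B-cell markers were called lower in every exposure, with medians of -4.84, -4.03, -4.45, -4.30 and -1.41, the 83% value being nearest to 0. Of 7 erythroid markers 5, 6, 6, 5 and 7 were called higher, with medians of 2.63, 2.04, 2.31, 2.01 and 1.63, and their mean log2 level ran from 7.06 to 7.69 in controls and from 7.99 to 10.07 over the exposed arrays. Of 6 T-cell markers 1, 2, 2, 1 and 0 were called lower, of 6 platelet markers 0, 0, 3, 3 and 1 were called higher, and of 5 NK-cell markers 0 in any exposure. Of 4 monocyte markers 2 were called higher at 83%, Cx3cr1 (1.30 ± 0.20) and Csf1r (0.82 ± 0.17). Of 5 neutrophil markers, Csf3r was called lower at 15% (-1.01 ± 0.21), 25% (-0.97 ± 0.23) and 83% (1.99-fold lower). Their part in the changes of proteasome genes was not tested.

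Promoters are shown for 4 members that held a motif described below. They run from 250 bases before to 50 after the start of the gene, from RefSeq on GRCm38.p6. Psmd2 and Psmc5, also called lower at 83% than at 25%, held neither motif and are not shown. Psmc3ip left aside, 37 members had a promoter sequence. Capitals mark the antioxidant response element TGACNNNGC, a sequence bound by NRF1-type factors, or the NF-Y box CCAAT, searched on both strands, so that a match on the other strand appears reversed and complemented. Psme4 lies at chr11:30771525-30771824 (plus strand), Psmd9 at chr5:123227940-123228239 (plus), Psmb5 at chr14:54617946-54618245 (minus) and Psmd4 at chr3:95042565-95042864 (minus).
Psme4: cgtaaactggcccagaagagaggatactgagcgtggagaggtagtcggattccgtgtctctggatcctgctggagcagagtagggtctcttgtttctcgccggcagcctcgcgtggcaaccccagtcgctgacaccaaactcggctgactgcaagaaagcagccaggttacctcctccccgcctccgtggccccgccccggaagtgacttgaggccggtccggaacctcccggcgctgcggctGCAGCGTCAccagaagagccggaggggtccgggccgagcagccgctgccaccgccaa
Psmd9: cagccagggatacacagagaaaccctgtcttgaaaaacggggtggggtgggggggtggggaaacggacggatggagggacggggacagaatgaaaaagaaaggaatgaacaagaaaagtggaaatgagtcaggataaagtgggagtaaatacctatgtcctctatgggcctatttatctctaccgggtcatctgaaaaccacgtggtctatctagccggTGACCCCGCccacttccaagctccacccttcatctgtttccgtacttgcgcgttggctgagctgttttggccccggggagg
Psmb5: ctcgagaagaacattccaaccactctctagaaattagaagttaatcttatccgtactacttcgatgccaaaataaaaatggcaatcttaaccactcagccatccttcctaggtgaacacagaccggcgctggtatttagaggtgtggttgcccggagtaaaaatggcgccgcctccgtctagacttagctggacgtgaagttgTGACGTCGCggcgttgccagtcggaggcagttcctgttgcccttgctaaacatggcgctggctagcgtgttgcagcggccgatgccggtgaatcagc
Psmd4: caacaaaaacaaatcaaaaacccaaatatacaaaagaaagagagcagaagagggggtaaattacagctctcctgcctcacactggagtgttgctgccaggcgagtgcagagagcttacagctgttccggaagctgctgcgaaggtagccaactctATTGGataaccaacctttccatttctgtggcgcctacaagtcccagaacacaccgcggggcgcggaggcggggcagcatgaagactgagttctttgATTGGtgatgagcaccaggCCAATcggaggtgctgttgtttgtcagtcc
Psme4, Psmd9 and Psmb5 each held 1 antioxidant element, and all 3 were among the 9 genes called lower at 83% than at 25%, of which 7 had a promoter sequence. The other 4 of the 7 held no antioxidant element, none of the 7 held a CCAAT box, and the element was also in Psmc6, which was not called, and in Psmb6 and Psmd12, which were not tested. Psmd4, called higher in all 5 exposures, held 3 CCAAT boxes and no antioxidant element. Over the 37 members, 6 (16.2%) held the antioxidant element and 13 (35.1%) the CCAAT box, against 3781 (13.99%) and 11096 (41.1%) of 27025 mouse promoters. By class the CCAAT box was in 7 of 12 core, 5 of 17 regulator and 0 of 3 chaperone promoters. These are matches of letters and no binding was measured.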

How the data were processed

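RNA from PAXgene-stabilised blood was labelled with Cy3 and hybridised to Agilent mouse arrays by the authors, 1 mouse per array. The deposited scanner files, written with Agilent Feature Extraction 12.0.2 per the labels, hold intensity values per spot, background-subtracted and detrended, with an mm9 annotation. The deposited expression table holds the authors' normalized log2 values of a filtered set of probes and was used as an alternative. No aligner applies.

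From the processed intensity, log2 values of uniform replicate spots were averaged per probe, and the median probe of each array was set to 0. A probe had to be significantly above background on more than 75% of arrays and differ at least 1.5-fold from its median on at least 20%, as in the study's methods. The brightest passing probe stood for a gene. Of 39429 probes, 21483 were above background and 17962 also varied enough, giving 15084 genes (17341 without the fold filter). Each comparison was fitted to its own 12 arrays. Linear models of limma 3.58.1 in R 4.3.3 gave the tests, with calls below thresholds of 0.001 unadjusted and 0.05 after Benjamini-Hochberg adjustment. The fit was tested on simulated data. The number of arrays, 6 per group, limits the precision. Each array is 1 mouse, and no pairing of mice by replicate number is stated.

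The members and lists were chosen with earlier results of these data known. Text values were given in full for the 2 largest rises and falls among called members in each exposure, for members called against x-rays, at 83% against 25%, or in all 5 exposures, and otherwise for called genes of the lists. The marker Ly6g, Ly6c2 and the 19S chaperone Paaf1 were not found under these names and were not used here. Promoters were matched by symbol. Figures were drawn with matplotlib. Some genes of the lists are not reported here.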

Additional observations from a re-analysis of the deposited data

Results flagged for a closer look

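The difference between 2 exposures was itself tested and passed for 11 results. Against x-rays, the 83% group was lower for Psmd2 (-1.61) and Psme4 (-2.06). Against the 25% mixed field it was lower for Psma5 (-1.13), Psmb5 (-0.91), Psmb7 (-1.06), Psmc3 (-1.02), Psmc5 (-1.36), Psmd2 (-1.34), Psmd6 (-0.96), Psmd9 (-1.25) and Psme4 (-1.61), all as log2 differences from limma with 6 mice per group.

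Of 108 groups of 6 arrays examined for the named members and for the core minus regulator difference, 9 held 1 array set apart from the others, where chance gives about 1 in 20. Log2 levels stood apart for Psmb7 at 5% (6.63, next 6.07), Psmc5 after x-rays (4.56, next 5.62) and at 83% (5.51, next 5.15), Psmd6 after x-rays (4.01, next 5.08), Psmd9 at 25% (5.33, next 4.70), Psme2b in controls (4.17, next 3.47), Psme4 in controls (1.67, next 2.65) and Psmg2 at 5% (5.12, next 4.08). The core minus regulator difference stood apart in 1 array at 83% (-0.28, next -0.11). The 2 low x-ray values were on the array of replicate 5, and the high 5% values of Psmb7 and Psmg2 were on the array of replicate 3.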

How the results depend on the processing

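Counts of called members among those tested, against 10, 8, 12, 11 and 15 for x-rays, 5, 15, 25 and 83% against controls, 0, 0, 0 and 2 against x-rays, and 9 for 83% against 25%, moved by over 1.5 times as follows. With 75th percentile scaling, 13 were called at 5%, and 5 at 83% against x-rays. Scaling on probes well above background gave 7 and quantile normalization 5 for 83% against x-rays, and quantile normalization gave 1 for 15% against x-rays. Normexp gave 0, 0, 1, 0 and 0 against controls, 0 for 83% against x-rays and 0 for 83% against 25%. The deposited values gave 24 at 83%, and 1 and 6 for 15 and 83% against x-rays. The model over 36 arrays gave 9 at 83%, and 4 and 1 for 15 and 25% against x-rays. Array weights gave 17 at 5%, and 2, 1 and 10 for 15, 25 and 83% against x-rays. The adjusted p alone gave 18, 18, 21 and 19 for x-rays, 5, 15 and 25%, and 2 and 11 for 15 and 83% against x-rays. Of all 15084 genes, 8877, 6716, 7491 and 7093 passed there against controls, and 1503 and 4241 against x-rays. For the other settings of this paragraph, the share of all genes called is given above or is not given here. Counts without that share cannot be set against it. With the slide block, 4 were called after x-rays, and 0 at 5%, 15% and 83% against 25%. With the scan session block, 0 were called at 5% and 15%. At 5 and 15% the session block rests on 1 array per group, and no session block could be fitted for 25 or 83% against controls or x-rays. With the replicate block, 5 were called for 83% against 25% and 2 for 25% against x-rays. The mean correlation of deviations was 0.04 over 90 pairs of same-numbered arrays of different groups, and -0.006 over 450 pairs of other numbers. Single same-numbered pairs ran from -0.75 to 0.74. A mean near 0 cannot show whether the numbers pair mice.

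The core minus regulator difference moved by more than its SD, and kept its sign, in some settings. Those settings changed the intensities, the genes that passed the filter, or both, and the cause was not tested. After x-rays it was -0.60 (75th percentile), -0.42 (well above background), -0.79 (quantile) and -0.61 (deposited). At 5% it was -0.32 (well above background), -0.73 (quantile), -0.48 (normexp) and -0.65 (deposited). With quantile and deposited values it was -0.72 and -0.62 at 15%, -0.66 and -0.57 at 25%, and -0.32 and -0.29 at 83%. With normexp it was -0.37 at 83%.

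Without 1 array at a time, counts ran from 8 to 11, 6 to 11, 9 to 16, 9 to 11 and 14 to 15 against controls, from 0 to 0, 0 to 2, 0 to 1 and 2 to 8 against x-rays, and from 9 to 11 for 83% against 25%. The core minus regulator difference ran from -0.33 to -0.27, -0.25 to -0.19, -0.21 to -0.14, -0.22 to -0.14 and -0.16 to -0.09. Of 854 single-gene values in other settings, 700 kept their call, 145 lost it and 9 reversed. Reversals with normexp, none of them called, were at 5% Psma5 (-0.63), Psmd4 (-0.66), Psmd8 (-0.55) and Psme3 (-0.52), and at 83% Psmd4 (-0.52), Psmd8 (-0.79) and Psmf1 (-0.46). Psme2b reversed without the fold filter at 15% (0.053) and 25% (0.10), where another probe stands for it. The cause of the other moves was not tested. Without Psmd5, Psmd9 and Psmd10, chaperones of 19S assembly, 9, 7, 11, 10 and 15 members were called against controls.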
